A study of Mus musculus with 12 samples.

Results

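The genes described here are the 6 DNA topoisomerase genes Top1, Top1mt, Top2a, Top2b, Top3a and Top3b, and Tdp1 and Tdp2, which encode the tyrosyl-DNA phosphodiesterases that repair trapped topoisomerases. They were chosen by name, as the family that holds the targets of doxorubicin and dexrazoxane (TOP2A and TOP2B) and the enzymes that remove trapped topoisomerases from DNA. The rule uses no measured value, but the choice was made with earlier results of these data known. The 8 genes were all found among the 54345 genes of the deposited table. The data are 12 poly(A) RNA-seq libraries from H9c2 cells harvested at 6 h, 3 for each of 4 groups. Unt was untreated. DOX received the anthracycline doxorubicin, D_DXZ received doxorubicin with dexrazoxane (DXZ), an iron chelator in clinical use, and D_MgHCF received doxorubicin with MgHCF nanocatalysts, an iron-binding magnesium hexacyanoferrate material. All 3 treated groups therefore carried doxorubicin, and no group received DXZ or MgHCF alone. The doses in the sequenced cells are not given in the sources used here.

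The labels give the cells as wild-type mouse myoblasts of the H9c2(2-1) line, whereas the study describes the line as rat cardiomyoblasts, and the gene table carries mouse identifiers. The muscle regulators Myf5, Myod1 and Myog were at or near 0 in every library (at most 0.126 FPKM), as were the cardiomyocyte genes Myh6, Nppa, Myl7 and Ryr2 (at most 0.272 FPKM). Des, the muscle intermediate filament gene, was between 0.339 and 1.57 FPKM. The muscle genes Actc1, Acta1 and Tnnt2 were at most 3.13 FPKM, and Vim, an intermediate filament gene of many mesenchymal cells, was between 93.4 and 1136 FPKM. Of the fibroblast genes, Col1a1 was between 18.8 and 79.1 FPKM and Col1a2 between 2.73 and 42.3 FPKM. Pdgfra was only between 0.264 and 0.828 FPKM and Thy1 at most 0.0477 FPKM, so these genes did not point 1 way. The muscle identity in the labels was not seen in the defining muscle genes. Nothing in the labels says that the 3 libraries of a group came from separate cultures, and the p-values then measure only the spread between libraries.

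DNA topoisomerases relieve the twisting and tangling of DNA by cutting it, passing strands and sealing the cut, and during the cut an active-site tyrosine stays joined to the DNA end. Type II enzymes cut both strands: TOP2A serves dividing cells and rises from S phase to mitosis, and TOP2B is also present in resting cells such as cardiomyocytes. Doxorubicin intercalates into DNA and traps type II enzymes on it, and TOP2B is widely held to take part in the cardiac toxicity of anthracyclines. Dexrazoxane is, besides an iron chelator, a catalytic inhibitor of type II enzymes. TOP1 and the mitochondrial TOP1MT cut one strand, TOP3A and TOP3B untangle single-stranded DNA (TOP3B also RNA), TDP1 cleaves the bond left mainly by TOP1, and TDP2 that left by TOP2.

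Top2a lies at chr11:98992943-99024189 on the minus strand, Top2b at chr14:16365179-16435462 (plus), Top1 at chr2:160645888-160722764 (plus) and Top1mt at chr15:75657035-75678800 (minus). Top3a lies at chr11:60740058-60777365 (minus), Top3b at chr16:16870870-16892984 (plus), Tdp1 at chr12:99884517-99955219 (plus) and Tdp2 at chr13:24831679-24842153 (plus), all in the GRCm38 coordinates of the deposited table. GENCODE M21 gives identical ends for 7 of them and other ends for Top3b. Rarb overlaps Top2b on the opposite strand over 4624 bases, and their transcripts share 1433 bases at 100% identity. No library was above 0.226 FPKM for Rarb. The largest group mean of any other overlapping gene was 1.65 FPKM (Gm26394, opposite Top2a, in Unt). Whether counting used strand is not given in the sources used here.

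The sequences before the starts of the paralogs Top2a and Top2b are shown because doxorubicin acts on the products of both and because the ratio of their levels was lower in every DOX than in every Unt library (values given with the ratio). Both are the 250 bases upstream of the RefSeq start (GRCm38.p6), written 5′ to 3′ on the strand of the gene. Capitals mark the CCAAT box, read as CCAAT on the strand shown or as ATTGG, its form on the other strand. The Top2a window is chr11:99024190-99024439 (minus) and the Top2b window chr14:16364956-16365205 (plus).
Top2a: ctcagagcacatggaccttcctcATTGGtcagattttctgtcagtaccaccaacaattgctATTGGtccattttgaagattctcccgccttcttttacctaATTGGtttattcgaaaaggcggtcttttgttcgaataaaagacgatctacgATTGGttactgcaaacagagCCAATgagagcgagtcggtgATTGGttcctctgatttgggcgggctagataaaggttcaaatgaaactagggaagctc
Top2b: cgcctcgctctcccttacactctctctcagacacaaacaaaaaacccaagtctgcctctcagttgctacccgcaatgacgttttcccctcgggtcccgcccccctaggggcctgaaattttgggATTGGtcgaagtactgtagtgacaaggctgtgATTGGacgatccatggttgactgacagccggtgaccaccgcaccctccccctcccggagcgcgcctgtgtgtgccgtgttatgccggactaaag
The Top2a window held 6 of these boxes, 1 as CCAAT and 5 as ATTGG, and the Top2b window held 2, both as ATTGG. Of 27025 promoter windows of this length, 34.5% held at least 1 box, 10.5% at least 2 and 0.0629% (17 windows) at least 6. GC content was 43.6% in the Top2a window and 57.6% in that of Top2b. Windows were matched for 5 of the 8 genes, and those of Top3b, Top1 and Tdp1 held 1, 0 and 0 boxes. No measurement here bears on whether a protein bound these letters. The windows are mouse sequence, whereas the study describes the cells as rat.

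Levels are given in FPKM, fragments per kilobase of gene as scaled by the authors, so that genes of different length can be compared. If the cells are rat, as the study states, the levels of single genes, their order and their ratios may depend on how rat reads map to mouse sequence. This was not tested. In untreated cells Top2a was the most abundant of the 8 genes at 61.6 ± 6.57 FPKM (SD, n = 3), followed by Top3b at 19.3 ± 1.78 FPKM and Tdp2 at 9.07 ± 0.871 FPKM. Top2a, Top3b and Tdp2 stood apart from each other and from the rest in every Unt library. Top1mt, Top2b, Top3a, Top1 and Tdp1 followed, with means from 7.53 down to 5.52 FPKM, and each neighbour in that order overlapped the next. Top2a alone made up 50.5% ± 2.24 of the summed FPKM of the 8 genes in Unt. The reads behind a gene ranged over the libraries from 133 to 780 for Tdp2 and from 154 to 427 for Top1mt, the thinnest, to 2186 to 15626 for Top2a.

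**Figure D1:**
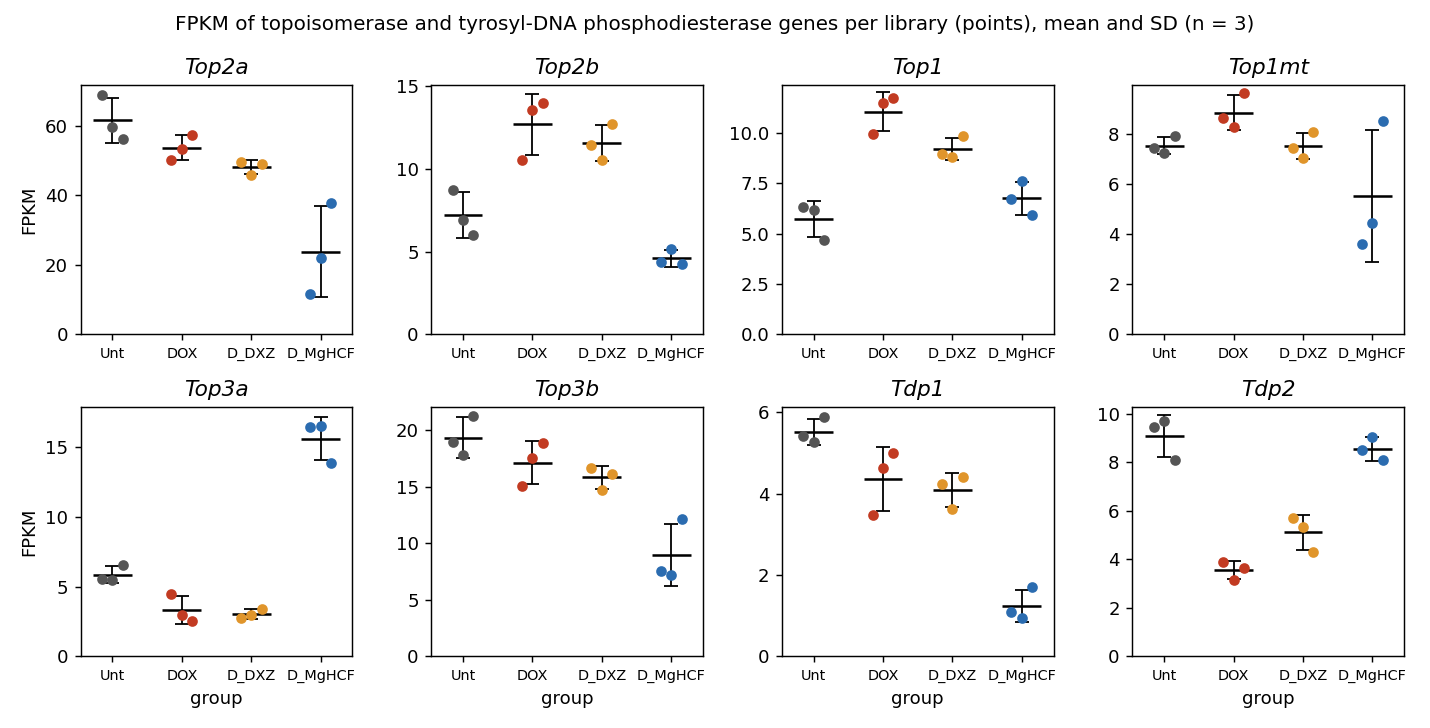
FPKM (vertical axes, from 0, a scale per gene) of the 8 genes in the 3 libraries of Unt, DOX, D_DXZ and D_MgHCF. Points are libraries, long bars the mean and whiskers the SD. Top2b and Top1 lie higher in DOX and D_DXZ than in Unt as deposited (the direction turns with TPM), Tdp2 lies lower there, and Top3a reaches 13.9 to 16.5 FPKM only in D_MgHCF among these 4 groups.

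The order changed with treatment. In DOX and in D_DXZ Top2a and Top3b were again first and second, Top2b and Top1 came next, and Tdp2 and Top3a were among the last 3. In D_MgHCF Top3a moved from last place in DOX to second at 15.6 ± 1.52 FPKM, its libraries overlapping those of Top2a (23.8 ± 13.2 FPKM), and Tdp1 was last at 1.24 ± 0.397 FPKM. Top3a made up 4.82% of the summed FPKM of the 8 genes in Unt, 2.95% in DOX and 21.7% in D_MgHCF, shares that stay the same under any scaling by a single factor per library (FPKM, TPM or total reads). The sum itself was 121.8 FPKM in Unt, 114.6 in DOX, 104.6 in D_DXZ and 75.0 in D_MgHCF.

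Differences were tested with limma on log2(FPKM + 1) over 25044 genes, and a gene was called at a Benjamini-Hochberg adjusted p under 0.05. In DOX against Unt 4 of the 8 genes were called, 2 higher and 2 lower, where 38.4% of all genes tested were called, 18.6% higher and 19.9% lower. In D_DXZ against Unt the count was again 4, 2 in each direction, where 33.9% of all genes were called (15.9% higher, 18.0% lower). In D_MgHCF against Unt it was 5, 1 higher and 4 lower, where 40.1% of all genes were called (24.3% higher, 15.7% lower). In D_MgHCF against DOX all 8 were called, 2 higher and 6 lower, where 51.5% of all genes were called (31.4% higher, 20.1% lower). In D_MgHCF against D_DXZ 7 were called, 2 higher and 5 lower, where 48.4% of all genes were called (29.4% higher, 19.0% lower), and in D_DXZ against DOX 0 were called, as were 0% of all genes. Many of the genes tested were barely expressed. Among the 12434 genes with an FPKM of at least 1 in 3 libraries or more, the counts of members called were the same. The shares of those genes called were 73.0% in DOX against Unt, 67.6% in D_DXZ against Unt and 54.5% in D_MgHCF against Unt. They were 75.1% in D_MgHCF against DOX and 70.3% in D_MgHCF against D_DXZ. All these counts hold for the deposited scale. With TPM 3 of the 8 genes were called in D_MgHCF against DOX, where 60.7% of all genes were called, and 4 in D_MgHCF against D_DXZ, where 57.3% were.

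How libraries are scaled bears on every direction given here. The deposited FPKM summed to 216899 to 230292 in Unt and 220276 to 290996 in D_MgHCF, but to 498756 to 627769 in DOX and 447052 to 549680 in D_DXZ. Rescaling each library to the same sum (TPM) moved the median difference of expressed genes in DOX against Unt from 0.02 to -1.18, scaling to total reads on genes moved it to -0.68, and quantile normalization left it at 0.02. The share of called genes that were higher in DOX was 48.3% as deposited, 9.80% with TPM, 20.0% with total reads and 49.0% with quantile normalization. For D_MgHCF against DOX these shares were 61.0%, 88.9%, 83.8% and 48.5%, and the median moved from -0.02 to 1.02 with TPM and 0.67 with total reads. For D_DXZ against Unt the shares were 46.8%, 8.30%, 19.4% and 49.0%, for D_MgHCF against Unt 60.7%, 58.0%, 63.9% and 47.9%, and for D_MgHCF against D_DXZ 60.7%, 89.1%, 82.7% and 48.7%. Differences of the 8 genes are given on the deposited scale, with the other scalings beside those whose sign or call they change. For the other genes named, the other scalings are given only as counts over their list. The single differences and calls of those genes hold for the deposited scale.

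Top2b, the type II enzyme of resting cells, was higher in DOX and D_DXZ than in Unt as deposited and lower in D_MgHCF. Its FPKM was 8.76, 6.90 and 5.98 in Unt, 10.6, 13.6 and 14.0 in DOX, 11.4, 10.5 and 12.7 in D_DXZ and 4.35, 5.19 and 4.26 in D_MgHCF. The 4 groups formed 3 levels, with every DOX and D_DXZ library above every Unt library and every D_MgHCF library below. The mean was 1.76-fold higher in DOX than in Unt, a log2 difference of 0.74 (SE 0.147, adjusted p = 0.00200), but this turned to -0.53 with TPM, called lower by limma (adjusted p = 0.0350), and to -0.12 with total reads. Against the median of expressed genes under the same scaling Top2b stood 0.72 higher as deposited, 0.65 higher with TPM, 0.56 with total reads and 0.80 with quantile normalization. In bulk RNA a lower level in every cell and fewer cells that express a gene cannot be told apart.

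With DXZ added Top2b was 1.60-fold higher than in Unt (0.62, adjusted p = 0.00698), which turned to -0.48 with TPM and -0.06 with total reads. With MgHCF the Top2b mean was 2.76-fold lower than in DOX (log2 difference -1.29, SE 0.147, adjusted p = 5.29e-05). TPM kept the direction at -0.23 but not the call, and the same held against D_DXZ (-1.17, and -0.28 with TPM). Against Unt Top2b was 1.57-fold lower in D_MgHCF, a log2 difference of -0.54 (adjusted p = 0.0151). Without Unt replicate 1, the highest Unt library, this difference was -0.41 and lost its call (adjusted p = 0.0604), as it did in a fit of only these 2 groups (adjusted p = 0.0525).

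Top2a, the type II enzyme of dividing cells, was measured at 68.9, 59.8 and 56.2 FPKM in Unt, 50.2, 53.5 and 57.4 in DOX, 49.7, 45.9 and 49.2 in D_DXZ and 11.5, 22.1 and 37.8 in D_MgHCF. DOX overlapped Unt, and the 3 D_MgHCF libraries were below all others but spread widely among themselves. For DOX against Unt the log2 difference was -0.19 with a 95% interval from -0.88 to 0.49, the widest interval among the 8 genes. The call depended on the scaling, with -1.38 under quantile normalization, -1.13 with total reads and -1.55 with TPM, all of them called. For D_DXZ against Unt it was -0.34 (interval from -1.03 to 0.34), and the same 3 scalings gave -1.33, -1.09 and -1.53, called too. A fit of only these 2 groups also called it (adjusted p = 0.0182).

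Top2a was downregulated in D_MgHCF under every alternative against Unt, 2.59-fold by the means (log2 difference -1.48, SE 0.308, adjusted p = 0.00413). Against DOX the difference was -1.29 (adjusted p = 0.00561), and against D_DXZ -1.14 (adjusted p = 0.0118). These 2 lost their call with TPM (-0.11 and -0.13), with total reads (-0.35 and -0.38) and with quantile normalization (-0.48 and -0.54), and that against D_DXZ also in a fit of only these 2 groups (adjusted p = 0.0568). Over all genes the D_MgHCF libraries were less alike than those of the other groups, with correlations from 0.942 to 0.984 beside at least 0.989. Without D_MgHCF replicate 3 the 3 differences were -1.87, -1.68 and -1.53, and without D_MgHCF replicate 1 they were -1.06, -0.87 and -0.72, all still called.

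The ratio of Top2a to Top2b within a library is the same in FPKM, TPM or reads scaled to a total, since each applies a single factor per library, whereas quantile normalization moved the paralogs unequally (-1.38 and 0.82 in DOX against Unt). It was 7.87, 8.66 and 9.39 in Unt, 4.76, 3.94 and 4.11 in DOX, 4.34, 4.36 and 3.87 in D_DXZ and 2.66, 4.26 and 8.87 in D_MgHCF. Every DOX and D_DXZ library lay below every Unt library, whereas D_MgHCF spanned the range of the other groups. The ratio was 2.02-fold lower in DOX than in Unt and 2.06-fold lower in D_DXZ, each with a two-sided exact permutation p of 0.1, the smallest that 3 against 3 libraries allow (0.3 after adjustment over the 6 pairs of groups). For D_MgHCF against DOX the log2 difference was 0.13, and it turned to -0.34 without D_MgHCF replicate 3 and rose to 0.53 without replicate 1.

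**Figure D2:**
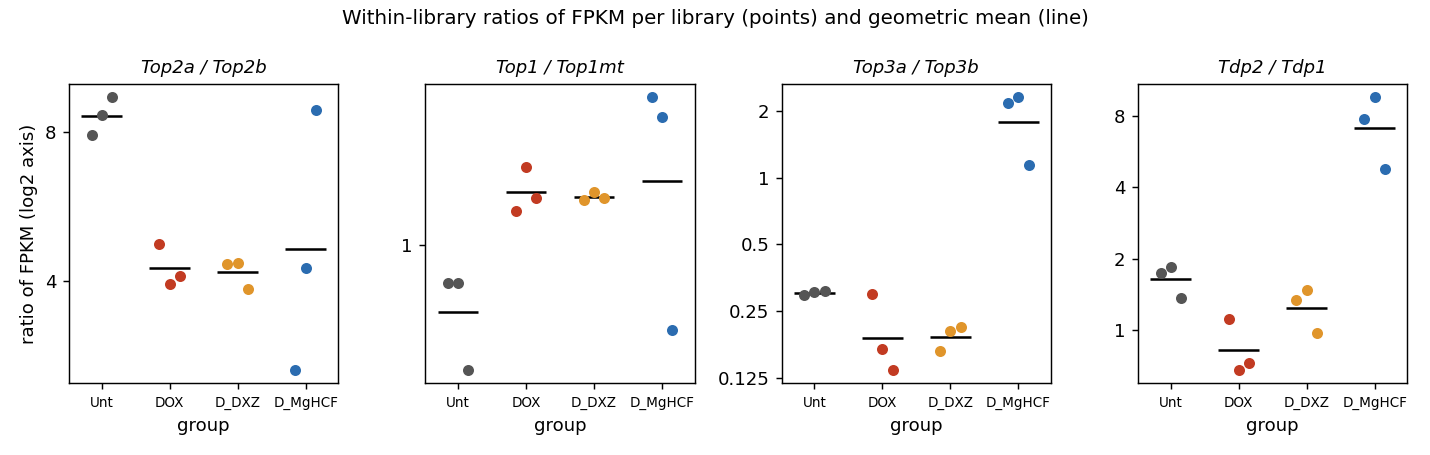
Ratio of FPKM between paired genes within each library (vertical axes, log2 scale; points are libraries, lines the geometric mean of 3). Top2a/Top2b is 7.87 to 9.39 in Unt and 3.94 to 4.76 in DOX, and Top3a/Top3b and Tdp2/Tdp1 are highest in the 3 D_MgHCF libraries.

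Top2a belongs to the genes that rise from S phase to mitosis, and a list of 20 other such genes was described beside it. In DOX against Unt 5 of the 20 were higher, 7 lower and 8 not called, with a median log2 difference of -0.40 beside 0 over all genes tested. Of all genes 38.4% were called there (18.6% higher, 19.9% lower). Plk1, a kinase of mitotic entry, fell most at -2.38 (SE 0.193, adjusted p = 1.28e-05), and Pcna, the sliding clamp of replication, rose most at 1.35 (adjusted p = 0.00117). In D_MgHCF against DOX 6 were higher and 8 lower (median -0.22), with Plk1 up by 2.22 and Ccnb2, a mitotic cyclin, down at -2.41. In D_MgHCF against Unt 0 were higher and 10 lower, with a median of -0.56. Of all genes 51.5% were called in D_MgHCF against DOX (31.4% higher, 20.1% lower) and 40.1% in D_MgHCF against Unt (24.3% higher, 15.7% lower). Under the filter at an FPKM of at least 1, 13 of the list were called in DOX against Unt and 16 in D_MgHCF against DOX. Of all genes passing it 73.0% and 75.1% were called there. For DOX against Unt TPM gave 0 higher and 16 lower, total reads 0 and 15 and quantile normalization 0 and 12. Of all genes called under these scalings 9.80%, 20.0% and 49.0% were higher, so that with TPM and total reads most were lower too. The same scalings gave for D_MgHCF against DOX 12 higher and 2 lower, 11 and 3, and 7 and 3. There 88.9%, 83.8% and 48.5% of all called genes were higher. The part of proliferation in the Top2a values was not tested.

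Top1, the main nuclear type I enzyme, was higher in DOX and D_DXZ than in Unt as deposited. It was 6.32, 6.16 and 4.68 FPKM in Unt, 9.94, 11.5 and 11.7 in DOX, 8.97, 8.80 and 9.84 in D_DXZ and 6.70, 7.60 and 5.95 in D_MgHCF. All DOX and D_DXZ libraries were above all Unt and D_MgHCF libraries, and the latter groups overlapped. The mean was 1.93-fold higher in DOX than in Unt, a log2 difference of 0.85 (SE 0.123, adjusted p = 0.000272), which was -0.39 with TPM and 0.01 with total reads, neither of them called. Relative to the median of expressed genes it was 0.83 as deposited, 0.78 with TPM, 0.68 with total reads and 0.99 with quantile normalization.

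In D_DXZ Top1 was 1.61-fold higher than in Unt (0.61, adjusted p = 0.00296), which turned to -0.47 with TPM (called lower) and -0.06 with total reads. In D_MgHCF Top1 was 1.64-fold lower than in DOX (log2 difference -0.64, adjusted p = 0.00153), which turned to 0.48 with TPM (called higher) and 0.23 with total reads. Relative to the median it stayed lower under all 4 scalings, between -0.62 and -0.44. Against Unt the difference was 0.21, with an interval from -0.07 to 0.48 and an adjusted p of 0.203. Against D_DXZ it was -0.40 (adjusted p = 0.0213), turned to 0.56 with TPM and 0.29 with total reads, and lost its call without D_DXZ replicate 3 (-0.36) and in a fit of only these 2 groups (adjusted p = 0.0621).

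Top1mt, the mitochondrial paralog, was 7.43, 7.23 and 7.91 FPKM in Unt, 8.61, 8.28 and 9.61 in DOX, 7.43, 7.02 and 8.06 in D_DXZ and 3.59, 4.42 and 8.52 in D_MgHCF. Replicate 3 of D_MgHCF was at the DOX level and the other D_MgHCF libraries were below every library of the other groups. In DOX against Unt the log2 difference was 0.20 (interval from -0.28 to 0.69), -1.09 with TPM (called) and -0.64 with total reads. In D_DXZ against Unt it was 0.00, beside -1.14 with TPM (called) and 0.24 with quantile normalization. In D_MgHCF against DOX it was -0.67 (adjusted p = 0.0259), turned to 0.42 with TPM and 0.18 with total reads, and lost its call without DOX replicate 1, DOX replicate 3, D_MgHCF replicate 1 or D_MgHCF replicate 2 (-0.68, -0.61, -0.45 and -0.57), and in a fit of only these 2 groups (adjusted p = 0.0973). Against D_DXZ it was -0.46, not called, and 0.48 with TPM and 0.22 with total reads. Without D_MgHCF replicate 3 Top1mt was also called lower than in Unt and in D_DXZ, at -0.77 in each. With 154 to 427 reads a library, Top1mt was among the thinnest of the 8 genes.

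**Figure D3:**
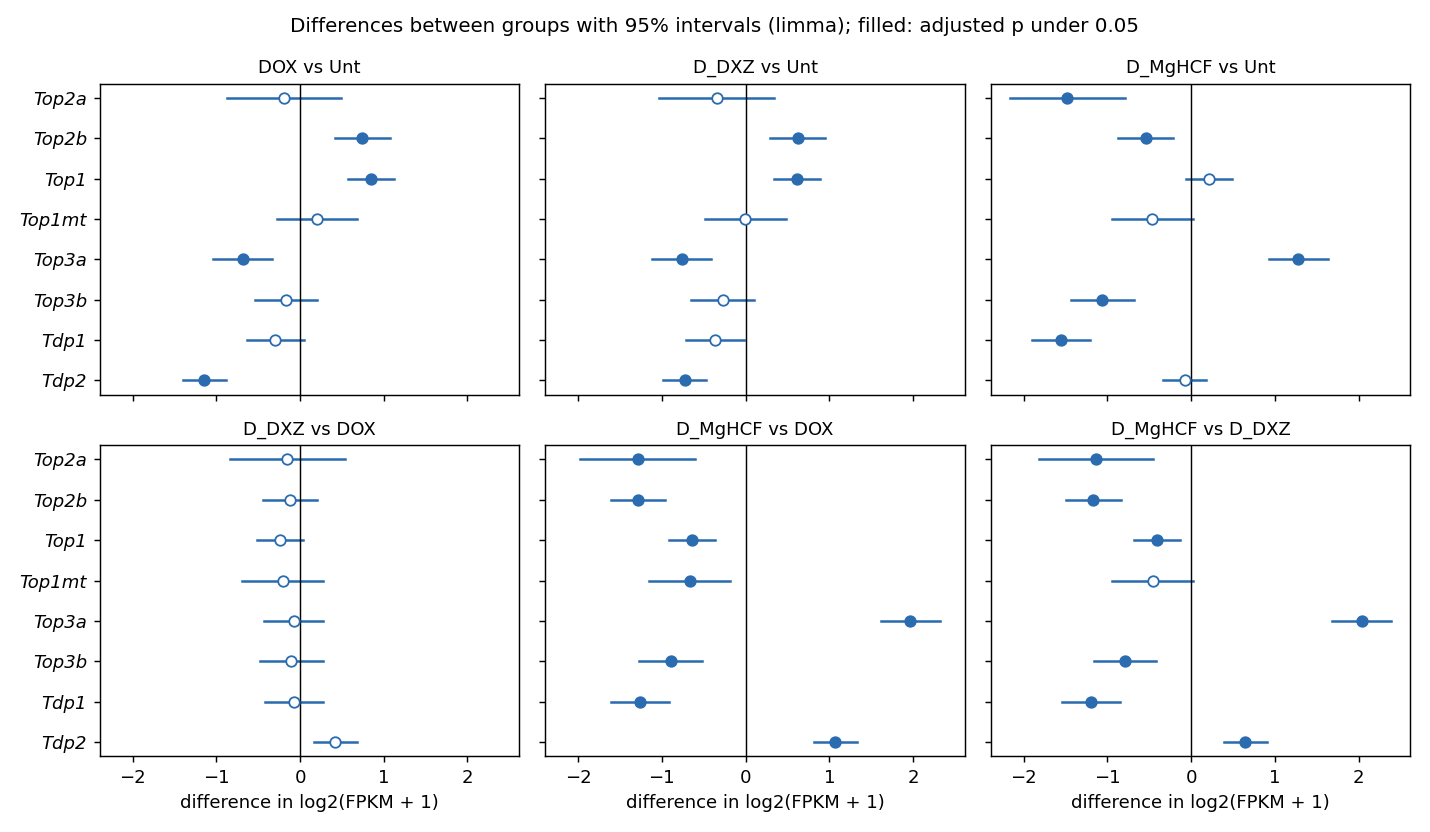
Differences in log2(FPKM + 1) between groups (horizontal axes) for the 8 genes in the 6 comparisons, with 95% intervals from limma and filled points where the adjusted p is under 0.05. Top3a at 1.96 and Tdp2 at 1.07 are the filled points to the right in D_MgHCF against DOX, and no point is filled in D_DXZ against DOX.

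Top3a, which untangles DNA crossovers together with the BLM helicase, was highest in D_MgHCF. It was 5.57, 5.44 and 6.52 FPKM in Unt, 4.47, 2.93 and 2.56 in DOX, 2.73, 2.97 and 3.40 in D_DXZ and 16.4, 16.5 and 13.9 in D_MgHCF. Doxorubicin alone and with DXZ went with lower values and MgHCF with values above every other library. The mean was 1.76-fold lower in DOX than in Unt (log2 difference -0.69, SE 0.158, adjusted p = 0.00525), and 1.92-fold lower in D_DXZ (-0.76, adjusted p = 0.00348), calls lost under quantile normalization at -0.26 and -0.41. In D_MgHCF it was 4.70-fold higher than in DOX (1.96, SE 0.158, adjusted p = 8.05e-06), 5.14-fold higher than in D_DXZ (2.04) and 2.67-fold higher than in Unt (1.28, adjusted p = 0.000225). These 3 calls held in direction and threshold in each of 23 alternatives.

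Top3b went the other way. Its FPKM was 18.9, 17.8 and 21.3 in Unt, 15.0, 17.5 and 18.8 in DOX, 16.6, 14.7 and 16.1 in D_DXZ and 7.56, 7.15 and 12.1 in D_MgHCF, so that every D_MgHCF library was below every other library. In DOX against Unt the log2 difference was -0.17 (interval from -0.54 to 0.21), and quantile normalization, total reads and TPM gave called differences of -0.56, -1.07 and -1.51. In D_DXZ against Unt it was -0.27, which the same scalings made -0.54, -0.99 and -1.45 and called, as did a fit of only these 2 groups and leaving out D_MgHCF replicate 3. In D_MgHCF Top3b was 2.16-fold lower than in Unt (-1.06, adjusted p = 0.000906) in every alternative. It was 1.91-fold lower than in DOX (-0.89, adjusted p = 0.00131) and lower than in D_DXZ (-0.79), differences that turned to 0.24 and 0.18 with TPM and were 0.00 and -0.07 with total reads.

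The ratio of Top3a to Top3b was chosen after the values were seen and is a description. It was 0.302 ± 0.00685 in Unt, 0.200 ± 0.0855 in DOX, 0.193 ± 0.0248 in D_DXZ and 1.88 ± 0.640 in D_MgHCF (SD, n = 3). Top3b was thus the more abundant paralog in every library of Unt, DOX and D_DXZ, and Top3a was in every D_MgHCF library, the lowest ratio there being 1.14. The ratio of Top1 to Top1mt was 0.765 in Unt, 1.25 in DOX, 1.23 in D_DXZ and 1.43 in D_MgHCF, where it spanned 0.698 to 1.87.

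The partners of the topoisomerases were described by a list of 9 genes. In DOX against Unt 1 was higher, 4 lower and 4 not called (median -0.40 beside 0 over all genes), in D_DXZ against Unt 1 and 4, in D_DXZ against DOX 0 and 0, in D_MgHCF against DOX 3 and 3, and in D_MgHCF against Unt 1 and 2. In the same order 38.4%, 33.9%, 0%, 51.5% and 40.1% of all genes were called. Under the filter at an FPKM of at least 1, 5 of the list were called in DOX against Unt and 6 in D_MgHCF against DOX. Of all genes passing it 73.0% and 75.1% were called there. The largest rise in DOX was that of Smc2, a condensin subunit that folds mitotic chromosomes, at 1.07 (SE 0.170, adjusted p = 0.000473), and it was the largest fall in D_MgHCF against DOX at -1.43. The largest fall in DOX was that of Blm at -0.99 (SE 0.171, adjusted p = 0.000812). Topors, which encodes a ubiquitin and SUMO ligase that binds TOP1, rose most in D_MgHCF against DOX at 0.90. Blm, Rmi1 and Rmi2 encode the proteins that act with TOP3A and are named for that role after their values were seen: all 3 were lower in DOX (-0.99, -0.49 and -0.74), and in D_MgHCF against DOX Blm and Rmi1 were higher (0.57 and 0.68) while Rmi2 was not called (0.25). With TPM, total reads and quantile normalization the list gave 0 higher and 8 lower, 0 and 7, and 0 and 2 in DOX against Unt. Of all genes called there 9.80%, 20.0% and 49.0% were higher. In D_MgHCF against DOX the list gave 6 and 0, 6 and 1, and 1 and 2, where 88.9%, 83.8% and 48.5% of all called genes were higher. Tdrd3, the partner of TOP3B and named for that role after its values were seen, was lower in DOX (-0.51). It was lower again in D_MgHCF than in DOX (-0.51), a call that TPM did not keep. Fmr1, of the same list, was called in neither comparison (0.27 and -0.36).

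Tdp2, the enzyme that frees DNA ends from TOP2, was the gene with the largest fall of the 8 in DOX against Unt as deposited. It was 9.43, 9.69 and 8.07 FPKM in Unt, 3.87, 3.15 and 3.63 in DOX, 5.69, 5.32 and 4.31 in D_DXZ and 8.50, 9.05 and 8.07 in D_MgHCF. DOX was below all D_DXZ libraries, D_DXZ below all Unt libraries, and D_MgHCF overlapped Unt. The mean was 2.55-fold lower in DOX than in Unt (log2 difference -1.14, SE 0.115, adjusted p = 3.03e-05), called lower in each of the 23 alternatives. In D_MgHCF it was 2.41-fold higher than in DOX (1.07, adjusted p = 3.76e-05), also in each of them, and it differed from Unt by -0.07 with an interval from -0.33 to 0.18 (0.03 with quantile normalization). In D_DXZ it was 1.78-fold lower than in Unt (-0.72, adjusted p = 0.000724), and D_MgHCF was 1.67-fold higher than D_DXZ (0.65, adjusted p = 0.00104).

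Tdp1, which cleaves TOP1 from DNA ends, was lowest in D_MgHCF. It was 5.42, 5.27 and 5.88 FPKM in Unt, 3.46, 4.62 and 4.99 in DOX, 4.24, 3.61 and 4.41 in D_DXZ and 1.09, 0.944 and 1.69 in D_MgHCF. The DOX and D_DXZ libraries were below those of Unt without passing the adjusted threshold, and the D_MgHCF libraries were far below both. In DOX the log2 difference from Unt was -0.29 (interval from -0.64 to 0.05, adjusted p = 0.185), which total reads and TPM made -1.07 and -1.60 and called, and quantile normalization 0.08. In D_DXZ it was -0.36 (adjusted p = 0.107), called at -0.99 with total reads and -1.51 with TPM, in a fit of only these 2 groups and without D_MgHCF replicate 3, and -0.02 with quantile normalization. In D_MgHCF Tdp1 was 4.44-fold lower than in Unt (-1.55, SE 0.155, adjusted p = 7.40e-05) and 3.29-fold lower than in D_DXZ (-1.19), in every alternative. It was 3.51-fold lower than in DOX (-1.26, adjusted p = 8.43e-05), a call that TPM did not keep at -0.52.

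The levels of Tdp1 and Tdp2 diverged in D_MgHCF. Their ratio (Tdp2 over Tdp1, chosen after the values were seen) was 1.65 ± 0.246 in Unt, 0.842 ± 0.239 in DOX, 1.26 ± 0.257 in D_DXZ and 7.38 ± 2.44 in D_MgHCF, and the lowest D_MgHCF library, at 4.77, was above the highest Unt library, at 1.84. As above, the ratio is unaffected by a single factor per library. Quantile normalization gave 0.87 for Tdp2 and -1.68 for Tdp1 in D_MgHCF against DOX.

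**Figure D4:**
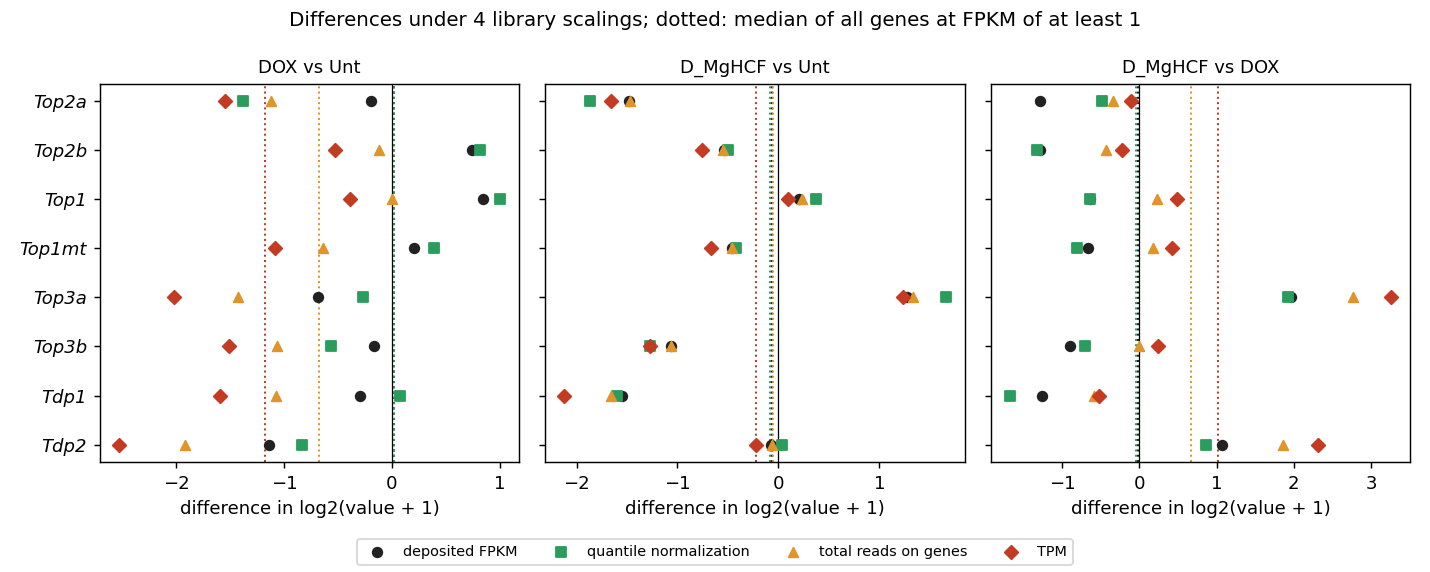
Differences in log2(value + 1) (horizontal axes) of the 8 genes under 4 scalings of the libraries, for DOX against Unt, D_MgHCF against Unt and D_MgHCF against DOX. Dotted lines mark the median of genes at FPKM of at least 1 under each scaling, -1.18 with TPM and 0.02 as deposited in DOX against Unt, and in D_MgHCF against Unt the scalings lie close together.

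A trapped topoisomerase is broken down or cut off before or beside the action of TDP1 and TDP2, and 18 genes of these routes were described. In DOX against Unt 4 were higher, 13 lower and 1 not called, with a median log2 difference of -0.99 beside 0 over all genes, and D_DXZ against Unt gave 3 higher and 12 lower. Of all genes 38.4% were called in DOX against Unt (18.6% higher, 19.9% lower) and 33.9% in D_DXZ against Unt (15.9% higher, 18.0% lower). Rnf111, a ubiquitin ligase that recognises SUMO chains, fell most at -1.71 (SE 0.238, adjusted p = 0.000206). Zfp451, whose product works with TDP2 on trapped TOP2 and which is named for that role after its values were seen, fell by 1.04 on the log2 scale. In D_MgHCF against DOX 8 were higher and 6 lower (median 0.58 beside 0.07), where 51.5% of all genes were called (31.4% higher, 20.1% lower). Sprtn, a protease for proteins joined to DNA, rose most at 1.77 (SE 0.192, adjusted p = 3.80e-05), Sumo2 fell most at -2.34 (SE 0.712, adjusted p = 0.0192), and Zfp451 rose by 1.03. In D_MgHCF against Unt 2 were higher and 6 lower, and in D_DXZ against DOX 0, where 40.1% and 0% of all genes were called. With TPM the DOX against Unt counts were 0 higher and 16 lower, and those of D_MgHCF against DOX 13 higher and 0 lower. Total reads gave 1 and 14, and 12 and 1, and quantile normalization 1 and 11, and 7 and 4. Among all genes called in DOX against Unt, TPM, total reads and quantile normalization gave 9.80%, 20.0% and 49.0% higher. For D_MgHCF against DOX they gave 88.9%, 83.8% and 48.5% higher. Sumo2 and Sprtn have 12 and 1 near-identical copies, and a copy of Sumo2 reached 369 FPKM, so that their values are uncertain. Plk1, Pcna and Lig3, named with other lists, share sequence with 1 other gene each, which reached 0.282, 6.67 and 2.90 FPKM.

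Of 10 genes that close the single-strand break left after TDP1, 2 were higher and 1 lower in DOX against Unt. Parp1, the poly(ADP-ribose) polymerase that senses such breaks, rose by 1.74 (SE 0.145, adjusted p = 1.38e-05), and Lig3, the ligase of this pathway, was lower by a log2 difference of -0.59 (adjusted p = 0.000921). In D_MgHCF against DOX 0 were higher and 4 lower, the largest fall being that of Parp2, a relative of Parp1, at -2.59 (SE 0.216, adjusted p = 9.45e-06). In D_MgHCF against Unt 0 were higher and 3 lower. D_DXZ against Unt gave 2 higher and 3 lower, and D_DXZ against DOX 0. Of all genes 38.4% were called in DOX against Unt, 51.5% in D_MgHCF against DOX, 40.1% in D_MgHCF against Unt and 33.9% in D_DXZ against Unt. TPM gave 1 higher and 9 lower in DOX against Unt but 6 higher and 1 lower in D_MgHCF against DOX, and total reads 1 and 8, and 6 and 3. These scalings called 45.3% and 41.4% of all genes in DOX against Unt, and 60.7% and 59.0% in D_MgHCF against DOX. Under the filter at an FPKM of at least 1, 4 of the list were called in DOX against Unt and 5 in D_MgHCF against DOX. Of all genes passing it 73.0% and 75.1% were called there.

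Of 10 genes of end joining, which seals the double-strand break left after TDP2, 3 were higher and 1 lower in DOX against Unt. Xrcc5, which encodes the KU80 end-binding subunit, rose by 1.08 (SE 0.263, adjusted p = 0.00712), and Poll, a gap-filling polymerase, fell by 0.83 on the log2 scale. In D_MgHCF against DOX 4 were higher and 4 lower, with Lig4, the ligase, up by 1.08 (adjusted p = 0.0132) and Xrcc5 down at -2.01 (adjusted p = 0.000123). In D_MgHCF against Unt 2 were higher and 3 lower, in D_DXZ against Unt 2 and 2, and in D_DXZ against DOX 0. Of all genes 38.4% were called in DOX against Unt, 51.5% in D_MgHCF against DOX, 40.1% in D_MgHCF against Unt and 33.9% in D_DXZ against Unt. With TPM end joining gave 0 higher and 7 lower in DOX against Unt, as did total reads, so that the rise of Xrcc5 was not called there. In D_MgHCF against DOX TPM gave 6 and 2 (6 and 4 with total reads, 2 and 4 with quantile normalization). TPM called 45.3% and total reads 41.4% of all genes in DOX against Unt, and the 3 scalings 60.7%, 59.0% and 38.1% in D_MgHCF against DOX. Under the filter at an FPKM of at least 1, 6 of the list were called in DOX against Unt and 7 in D_MgHCF against DOX. Of all genes passing it 73.0% and 75.1% were called there.

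**Figure D5:**
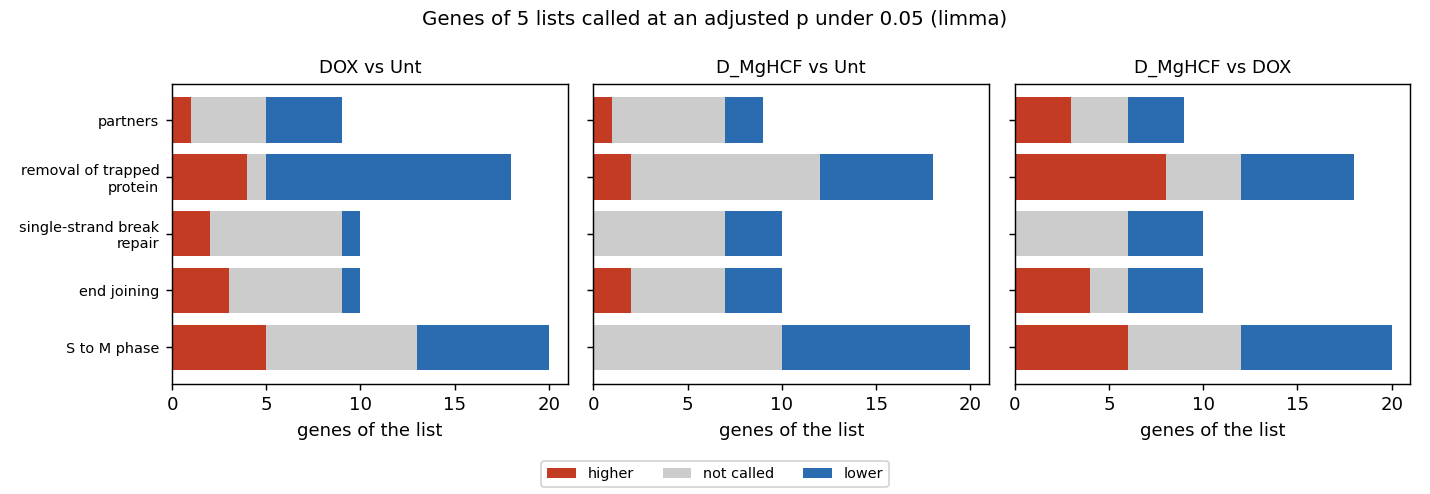
Number of genes (horizontal axes) of 5 lists called higher, called lower or not called by limma at an adjusted p under 0.05 in 3 comparisons, as deposited. The list for removal of trapped protein holds 13 lower of 18 genes in DOX against Unt and 8 higher in D_MgHCF against DOX, where 19.9% and 31.4% of all genes tested were called in those directions. Of genes at an FPKM of at least 1 in 3 libraries or more, 73.0% and 75.1% were called in either direction.

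Addition of DXZ to doxorubicin gave no call among the 8 genes and none among the 25044 tested, by the limma fit described above or by limma's voom on the recovered reads. Quantile normalization called 2 genes higher and 1 lower. A pseudocount of 0.1 called 6 genes, the filter at an FPKM of at least 1 called 2 and no filter 1, none of them among the 8. In the limma fit described above 2388 genes had an unadjusted p under 0.05. The largest difference among the 8 was that of Tdp2, 1.44-fold higher with DXZ (log2 difference 0.42, interval from 0.16 to 0.68, unadjusted p = 0.00444 and adjusted p = 0.322 by limma), and each of the 3 D_DXZ libraries was above each DOX library. For the targets of DXZ the differences were -0.12 for Top2b (interval from -0.45 to 0.21) and -0.15 for Top2a (from -0.84 to 0.54). The intervals for Top1 (-0.24), Top1mt (-0.21), Top3b (-0.10), Top3a (-0.08) and Tdp1 (-0.07) also included 0, and the widest of these, that of Top1mt, reached from -0.69 to 0.27. With TPM and total reads the differences of Top2a, Top2b, Top3a, Top3b and Tdp1 turned to between 0.02 and 0.09, and with quantile normalization those of Top2a and Top3b to 0.06 and 0.02, none of them called. Protein was not analysed here.

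The genes most like each of the 8 over the 12 libraries were found by the root mean square difference of log2(FPKM + 1), each gene centred on its own mean, among 11517 genes with a mean of at least 1 FPKM. Wwp1 (0.0714), Thoc1 and Hccs were closest to Top2b, and Dhx40 (0.153) and Smchd1 were among the closest to Top2a. Usp15 (0.103), Tbc1d15 and Lsm3 were closest to Top1, and Mfn2 (0.0726), Kdm1a and Rnpepl1 to Top1mt. Jmjd4 (0.125), Sh3bp5l and Tmem169 were closest to Top3a, and R3hdm1 (0.0858), Mcm3ap and Polr2m to Top3b. Nfu1 (0.101), Ube2s and Elp3 were closest to Tdp1, and Fam208a (0.0977) and Klf13 were among the closest to Tdp2. The genes were picked as the nearest of 11517 by this same measure, so small values follow from the choice. The members' own SD over the libraries ranged from 0.337 log2 units for Top1mt to 0.834 for Top3a. Several of these genes share sequence with others (Jmjd4 with 6, R3hdm1 with 19, Ube2s with 3 and Fam208a with 2), which makes their own values uncertain. Thoc1, Wwp1, Hccs, Usp15, Lsm3, Nfu1 and Mcm3ap share sequence with 1 other gene each, and that of Thoc1 reached 24.5 FPKM. Among the 8 genes the closest pair was Top3b and Tdp1 (0.200) and the farthest Top2a and Top3a (1.41).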

How the data were processed

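Poly(A) RNA of H9c2 cells was measured in 12 libraries, made with a NEBNext Ultra kit and sequenced as paired-end reads of 150 bp. The submitters' processing notes name HISAT2 2.0.5 and GRCm38/mm10; the counting program and annotation release are not given in the sources used here. The authors deposited FPKM values per gene and library, with replicates kept apart and no other unit. Multiplied by gene length, these FPKM were whole multiples of a step in each library (100% of values, tolerance 0.01), which gave 16626514 to 19365119 reads on genes per library. The scaling in the deposited FPKM equalled a median-ratio scaling of these reads. No sample column was left unused.

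Groups followed the labels. Differences were tested with limma 3.58.1 in R 4.3.3 (trend) on log2(FPKM + 1), a scale on which changes of low genes are understated, with the 4 groups in 1 fit and no block, over the 25044 genes whose FPKM exceeded 0 in 3 libraries or more, with Benjamini-Hochberg adjustment over all genes. The study names a negative binomial test, but the deposited unit is FPKM, so limma was used here. The paralog ratio was tested with an exact two-sided permutation test (SciPy 1.17.1). The limma fit was tested on simulated data for DOX against Unt. Of 100 genes planted at a log2 difference of 1 it called 62, and of 100 planted at 2 it called 97. Near-identical copies were sought with BLAST 2.17.0 (at least 95% identity over 150 bases) among GENCODE M21 transcripts, and promoter windows came from RefSeq.

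The genes named are the 8 members, the called gene with the largest rise and the largest fall of each list in DOX against Unt and in D_MgHCF against DOX, and the 3 nearest genes of each member. Rmi1, Rmi2, Tdrd3 and Zfp451 were named besides, for their roles and after their values were seen, and Fmr1 is given beside Tdrd3. A few genes that this rule names are left out and not reported here. The members and lists were chosen with earlier results of these data known. Alternatives were no filter or one at an FPKM of 1, 0.1 as the pseudocount, unadjusted p, a fold of at least 2, the replicate number as a block, a fit of only the compared groups, TPM, quantile normalization, total reads, voom on the recovered reads, and each library left out. Among other cell markers, endothelial Pecam1, Cdh5 and Kdr were at most 0.932 FPKM, Ptprc and Adgre1 of leukocytes at most 0.0147, and Cd68 between 0.885 and 4.77.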

Additional observations from a re-analysis of the deposited data

How the results depend on the processing

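Of 1104 values (8 genes in 6 comparisons under 23 alternatives), 1024 kept their side of the threshold (24 of them changed sign where neither fit called the difference), 37 kept the direction and lost the call, 26 gained one and 17 changed sign where at least 1 of the 2 fits called the difference. The 17 came from TPM and total reads. With TPM they were, in DOX against Unt, Top1 (-0.39), Top1mt (-1.09) and Top2b (-0.53); in D_DXZ against Unt, Top1 (-0.47) and Top2b (-0.48); in D_MgHCF against DOX, Top1 (0.48), Top1mt (0.42) and Top3b (0.24); and in D_MgHCF against D_DXZ, Top1 (0.56) and Top3b (0.18). With total reads they were Top2b in DOX against Unt (-0.12), Top1 and Top2b in D_DXZ against Unt (-0.059 and -0.063), Top1, Top1mt and Top3b in D_MgHCF against DOX (0.23, 0.18 and 0.0012) and Top1 in D_MgHCF against D_DXZ (0.29). The cause was not tested.

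With TPM 7 of the 8 genes were called in DOX against Unt and 7 in D_DXZ against Unt, 0 of them higher, 3 in D_MgHCF against DOX (3 higher) and 4 in D_MgHCF against D_DXZ (3 higher), where 45.3%, 43.9%, 60.7% and 57.3% of all genes were called. Total reads gave 4 and 4 in the last 2 comparisons, where 59.0% and 55.1% of all genes were called. With a fold of at least 2 the counts were 1 in DOX against Unt, 0 in D_DXZ against Unt, 5 in D_MgHCF against DOX and 4 in D_MgHCF against D_DXZ (20.0%, 15.0%, 22.8% and 19.4% of all genes). A fit of only the 2 groups called 7 in D_DXZ against Unt, 4 in D_MgHCF against Unt, 7 in D_MgHCF against DOX and 5 in D_MgHCF against D_DXZ. It called 53.9%, 28.9%, 43.1% and 38.3% of all genes there. An unadjusted p called 1 in D_DXZ against DOX, where 9.54% of all genes were called. For the lists, TPM and quantile normalization called 8 and 2 partners in DOX against Unt, and quantile normalization 3 in D_MgHCF against DOX. TPM and total reads called 10 and 9 genes of single-strand break repair in DOX against Unt and 7 and 9 in D_MgHCF against DOX, and 7 and 7 of end joining in DOX against Unt.

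Leaving out 1 library at a time gave 4 to 4 members called in DOX against Unt, 4 to 6 in D_DXZ against Unt, 4 to 6 in D_MgHCF against Unt, 0 to 0 in D_DXZ against DOX, 7 to 8 in D_MgHCF against DOX and 6 to 8 in D_MgHCF against D_DXZ. In the same order these fits called 34.2% to 45.3%, 28.6% to 41.6%, 29.4% to 52.5%, 0% to 0.0168%, 42.9% to 59.7% and 40.7% to 57.0% of all genes. The upper ends of 6 came without D_MgHCF replicate 3, which called Top3b and Tdp1 lower in D_DXZ than in Unt and Top1mt lower in D_MgHCF than in Unt. The log2 difference of the Top2a to Top2b ratio ranged from -1.10 to -0.96, -1.11 to -0.98, -1.36 to -0.49, -0.080 to 0.055, -0.34 to 0.53 and -0.31 to 0.56 in the same order. Deviations of same-numbered libraries from their group means correlated at 0.033 to 0.31 between D_DXZ and DOX, and at -0.31 to 0.075 between other groups. Differently numbered libraries were not compared, so these values do not settle whether the numbers pair libraries. With a replicate block the counts of members called stayed at 4, 4, 5, 0, 8 and 7 in that order, where 37.6%, 33.0%, 38.1%, 0%, 50.4% and 47.0% of all genes were called.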
